A study of Homo sapiens with 15 samples.

Results

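KPL4 cells without estrogen receptor β (ERβ) were compared with KPL4 cells that keep their own ERβ, in 3 libraries of each kind out of the 15 libraries of the series. The 6 libraries were chosen by their labels alone, and the values below describe what set knockout apart from control cells across all genes, and mainly outside long stretches of chromosomes in which most genes moved together. KPL4 is a human breast adenocarcinoma line with amplified ERBB2, the gene of HER2. The other 9 libraries came from knockout cells given ERβ again, untreated or treated. The control cells are called wild type, the knockout cells carry no added ERβ, and both received no treatment. All were grown in Ham's F12 medium with 7% fetal bovine serum, HEPES, insulin and hydrocortisone. The labels do not say how the knockout was made, whether the knockout cells are 1 clone, or whether the libraries of a group came from separate cultures, so the p-values measure only the spread between these libraries.

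ERβ, encoded by ESR2, is a nuclear receptor that binds estrogens and DNA, and it shares its DNA element with ERα, the product of ESR1. At DNA it recruits coactivators or corepressors, and it also acts through other factors such as AP-1. In breast epithelium it is known mostly as a receptor that counters proliferation, and in tumours without ERα it can be the only estrogen receptor present. Levels are given in CPM, counts scaled to library size with TMM factors. Differences are log2 fold changes of knockout over control, ± SE of the fit where stated, and a value in parentheses after a gene is its log2 fold change, from the fit without offsets unless both are given. Calls rest on the edgeR quasi-likelihood test with Benjamini-Hochberg adjustment and a threshold of 0.05, and the adjusted p-values below come from that test unless another is named.

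ESR2 (ENSG00000140009, chromosome 14, 64084232 to 64338112, minus strand) was at 6.44, 4.79 and 6.07 CPM in the control libraries and at 5.77, 3.04 and 4.41 CPM in the knockout libraries. The groups overlapped, and the log2 fold change of -0.38 ± 0.17 was not called (adjusted p = 0.0796, edgeR, n = 3 each). With offsets for GC content and length it was -0.37 (adjusted p = 0.0849). It passed with DESeq2 (adjusted p = 0.043), when no filter was set (0.0291), and when control replicate 2 (0.0344) or knockout replicate 1 (0.00992) was left out. Without knockout replicate 2 it was -0.19 (adjusted p = 0.371). ESR2 was called in 6 of 24 settings, the main fit among the 24, with log2 fold changes from -0.597 to -0.19. SYNE2, a nuclear envelope gene on the opposite strand that overlaps ESR2, was at 279, 297 and 291 CPM in control and 259, 229 and 251 CPM in knockout libraries. The use of strand in counting is not given in the sources used here, and an edit need not lower an mRNA, so these ESR2 counts are no check of the label.

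Total expected counts ran from 13649584 to 15932714 in control and from 12614074 to 15891449 in knockout libraries. GC balance moved with the groups. The GC-richest decile of genes stood against the GC-poorest decile, on a log2 scale relative to each gene's mean, at -0.447, -0.275 and -0.432 in control libraries and at 0.21, 0.433 and 0.492 in knockout libraries. Mitochondrially encoded mRNAs took 4.10 to 4.19% of control and 2.80 to 3.67% of knockout counts. Of all genes tested, 23.4% were called higher and 22.6% lower without offsets. Markers of HER2-amplified cells include ERBB2 and its amplified neighbour GRB7, so their calls need not be independent. All 5 of these markers were higher in knockout cells (4 of 5 with offsets), and of 7 luminal markers 2 were higher and 4 lower (2 and 5 with offsets). Their summed levels were 5236 to 5603 CPM in control and 7706 to 8003 CPM in knockout for the HER2 markers, and 3179 to 3281 and 2781 to 2977 CPM for the luminal markers. Markers of leukocytes summed to at most 1.41 CPM in any library, those of fibroblasts to at most 3.18 CPM, those of myoepithelial cells to at most 7.08 CPM, with 2 of 5 members at 0 reads, and those of endothelial cells to at most 13.5 CPM. The part of GC balance in the results was not tested beyond the fit with offsets.

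Of 19516 genes tested, 8971 were called, which is 46.0%. These were 4561 higher and 4410 lower genes. The groups did not overlap at 10257 genes (52.6%). Offsets took out of each library its smooth dependence on GC content and exonic length, and with them 7995 of 19093 genes were called (41.9%), 4209 higher (22%) and 3786 lower (19.8%). Both fits called 3169 genes higher and 3045 lower. Against a fold of 1.5, edgeR called 1622 genes without offsets (8.31%; 1081 higher and 541 lower) and 1154 with them (6.04%; 724 higher and 430 lower). By direction these were 5.54% and 2.77% of the genes without offsets. Both fits called 665 higher and 380 lower past that fold.

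The calls without offsets followed GC content. In the GC-richest decile 1253 were higher and 42 lower, with a median log2 fold change of 0.57. In the GC-poorest decile 171 were higher and 647 lower, with a median of -0.15. With offsets these became 478 higher and 374 lower (median 0.05) and 441 higher and 318 lower (median 0.05). Chromosome 19 outside the blocks had 444 higher and 164 lower genes without offsets and 215 and 276 with them.

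**Figure D1:**
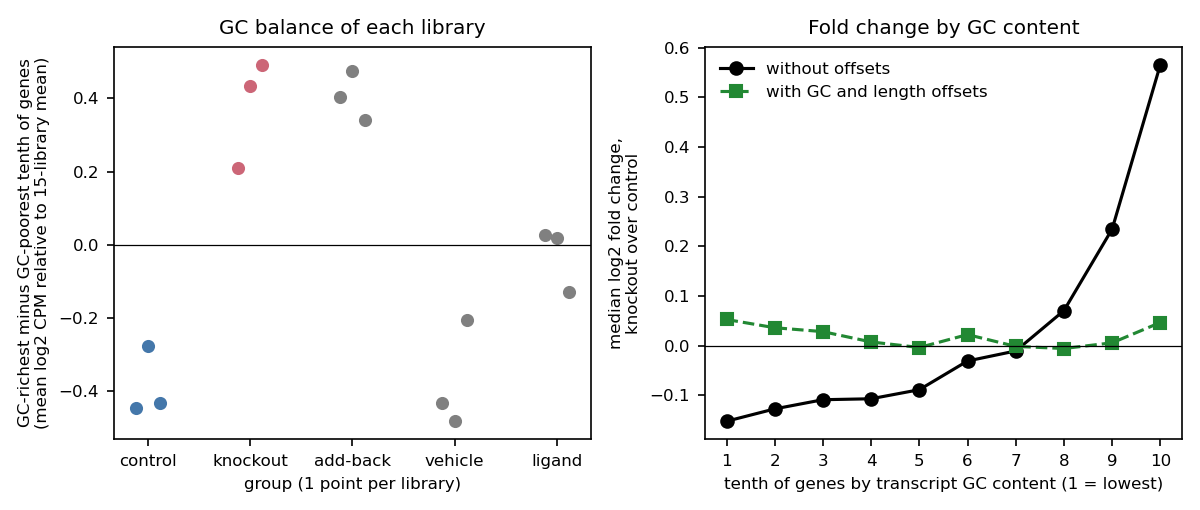
GC balance of the libraries and its trace in the fold changes. Left, the GC-richest against the GC-poorest decile of genes (log2) in each library by group, with the 3 control libraries from -0.447 to -0.275 and the 3 knockout libraries from 0.21 to 0.492. Right, the median log2 fold change of knockout over control in each decile of GC content, without offsets (up to 0.57 in the richest decile) and with offsets (0.05 there).

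At 135 genes the direction turned from higher without offsets to lower with them, both called, and the reverse was seen at 2 genes, KNL1 (-0.09 without and 0.09 with offsets) and ZNF518A (-0.09 without and 0.09 with offsets). Among the turning genes with the highest levels, TRIM28, a corepressor, was at 395, 424 and 385 CPM in control and 452, 479.9 and 485 CPM in knockout libraries. Its log2 fold change was 0.24 without and -0.09 with offsets. RPPH1, the RNA of RNase P, turned from 0.22 to -0.15, MYH9, a nonmuscle myosin, from 0.10 to -0.11, and PRRC2A from 0.16 to -0.11. No direction can be given for these 4. CLDN3, a tight junction claudin, kept its direction. It was at 4.24, 4.07 and 4.55 CPM in control and 19, 38.2 and 49.2 CPM in knockout libraries. Knockout replicate 1, with the lowest balance of the 3, had the lowest CLDN3 level, and the log2 fold change was 3.05 without and 2.08 with offsets. Whether levels of genes follow the balance within the knockout group was not tested.

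The direction of calls also varied with expression level. Below a mean log2 CPM of 0, 403 genes were higher and 143 lower, and above 8, 98 were higher and 359 lower. With offsets the counts were 344 and 118, and 135 and 307. Protein-coding genes were called more often (55.8% of 14012) than long noncoding RNAs (23% of 3076), a difference that was not tested.

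The largest rises among protein-coding genes outside the blocks, called in both fits with no overlap between groups, included secreted and surface proteins. Genes in each list were named by size or by p, and genes outside those rules were chosen after their values were seen. CRISP3 (ENSG00000096006, chromosome 6, 49727384 to 49744437, minus strand), a secreted cysteine-rich protein of exocrine glands, was at 7.05, 8.43 and 7.01 CPM in control and 265, 273 and 260.3 CPM in knockout libraries (5.15 without and 5.34 with offsets). The epithelial serine protease KLK5 (ENSG00000167754, chromosome 19, 50943303 to 50953093) was at 0.985, 1.14 and 0.948 CPM in control and 20, 21.9 and 20.6 CPM in knockout libraries, a log2 fold change of 4.34 ± 0.12 (adjusted p = 1.68e-15). Every knockout library lay above every control library. Its kallikrein neighbour KLK6 moved the other way, from 308, 324 and 316 CPM to 259, 246 and 254 CPM (-0.32), so a rise was not shared along this cluster.

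AZGP1 (ENSG00000160862, chromosome 7, 99966720 to 99976157), a secreted zinc-binding glycoprotein and a marker of apocrine differentiation, was at 9.32, 9 and 9.1 CPM in control and 84, 82 and 79.1 CPM in knockout libraries. Its log2 fold change was 3.16 ± 0.08 (adjusted p = 7.95e-16) and 3.15 with offsets. The 3 libraries of each group lay close together, far from the other group. CLEC3A, a secreted lectin, was at 7.73, 7.64 and 8.15 CPM in control and 44.6, 44.1 and 41.3 CPM in knockout libraries (2.46 ± 0.08). COL12A1, a fibril-associated collagen, was at 0.833, 1 and 1.33 CPM in control and 14.5, 14 and 13.5 CPM in knockout libraries (3.70 without and 3.76 with offsets). SMOC1, a matrix protein that modulates BMP signals, had log2 fold changes of 4.21 without and 4.16 with offsets.

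SLC7A2, a transporter of cationic amino acids, was at 3.56, 4.36 and 4.8 CPM in control and 45.7, 50.1 and 44.4 CPM in knockout libraries. CD36, a scavenger receptor that takes up fatty acids, was at 1.06, 0.857 and 0.379 CPM in control and 9.26, 7.08 and 7.65 CPM in knockout libraries. Their log2 fold changes were 3.45 ± 0.10 and 3.41 ± 0.23, and neither gene had overlapping groups. GLI3 (ENSG00000106571, chromosome 7, 41960950 to 42237870), a transcription factor of the Hedgehog pathway, was at 0.985, 0.643 and 1.07 CPM in control and 8.91, 8.37 and 9.06 CPM in knockout libraries. It rose by 3.27 ± 0.16 (adjusted p = 6.63e-12), with the same value under offsets. SYT12 (3.98 without and 3.81 with offsets), a synaptotagmin, and TMEM86A (3.50 without and 3.43 with offsets), a lysoplasmalogenase, SLC24A3 (2.98 without and 2.98 with offsets), a sodium/calcium/potassium exchanger, and NCMAP (2.95 without and 3.03 with offsets), a myelin-associated protein, complete the largest rises beside VTCN1, ADCY2 and ELMO1.

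**Figure D2:**
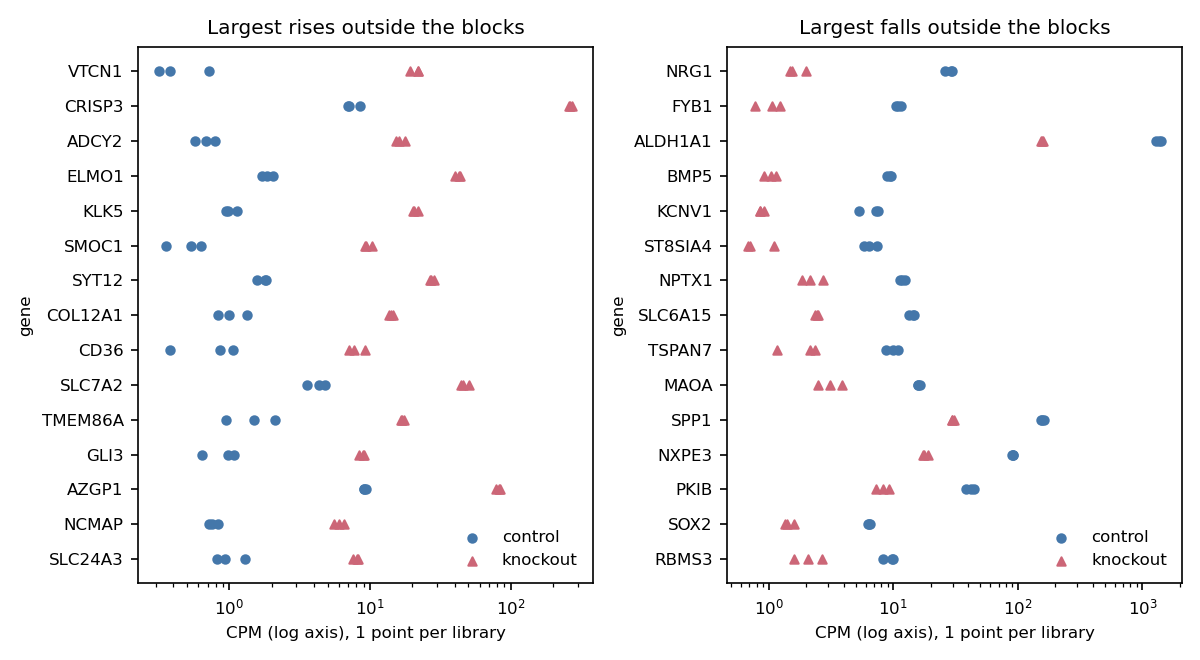
CPM (log axis) in each of the 3 control and 3 knockout libraries for the 15 largest rises and 15 largest falls of protein-coding genes outside the blocks. Genes below a mean log2 CPM of 1 were left out. Each point is 1 library. No gene has overlapping groups, since that was part of the rule.

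Falls of that kind included signalling ligands and a stem cell factor. SOX2 (ENSG00000181449, chromosome 3, 181711924 to 181714436), a transcription factor of pluripotent and progenitor cells, was at 6.51, 6.29 and 6.44 CPM in control and 1.35, 1.6 and 1.41 CPM in knockout libraries. Its log2 fold change was -2.14 ± 0.14 (adjusted p = 2.72e-10) and -2.10 with offsets. BMP5, a ligand of the BMP family, was at 9.39, 9.57 and 8.91 CPM in control and 1.14, 0.913 and 1.04 CPM in knockout libraries (log2 fold change -3.16 ± 0.19). The knockout libraries of both genes lay below all control libraries. SPP1 (ENSG00000118785, chromosome 4, 87975650 to 87983426), which encodes the secreted adhesion protein osteopontin, was at 162, 157 and 155 CPM in control and 31, 29.8 and 29.5 CPM in knockout libraries (-2.39 ± 0.04).

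MAOA, which oxidises serotonin and noradrenaline, was at 15.8, 15.9 and 16.4 CPM in control and 3.13, 3.88 and 2.51 CPM in knockout libraries (-2.35 ± 0.11). PKIB, an inhibitor of protein kinase A, was at 44.5, 38.5 and 41.8 CPM in control and 9.26, 7.23 and 8.21 CPM in knockout libraries (-2.33 ± 0.08). FYB1, an adaptor protein best known in T cells, was at 10.6, 11.5 and 10.9 CPM in control and 0.784, 1.07 and 1.22 CPM in knockout libraries (-3.40 ± 0.16). All 3 falls were of similar size with offsets, at -2.27, -2.16 and -3.25. NRG1, a ligand of ERBB3 and ERBB4, was at 29.3, 29.9 and 26.2 CPM in control and 1.5, 1.98 and 1.53 CPM in knockout libraries (-4.09 without and -4.06 with offsets). Further falls were ALDH1A1 (-3.12 without and -2.98 with offsets), KCNV1, a potassium channel subunit (-2.93 without and -2.81 with offsets), ST8SIA4, a polysialyltransferase (-2.93 without and -2.75 with offsets), and SLC6A15, an amino acid transporter (-2.53 without and -2.37 with offsets). TSPAN7 (-2.42 without and -2.36 with offsets), a tetraspanin, NPTX1 (-2.38 without and -2.56 with offsets), a pentraxin, NXPE3 (-2.33 without and -2.23 with offsets) and RBMS3 (-2.15 without and -2.06 with offsets), an RNA-binding protein, were the others.

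Start regions of genes that moved past 1.5-fold in both fits held fewer CpG sites than those of all tested coding genes, as a description with no test. In 300 bases around the RefSeq start (250 before, 50 after), the median CpG ratio (observed over expected from the C and G content) was 0.83 over 11190 tested coding genes. It was 0.769 over 418 higher genes and 0.661 over 159 lower genes outside the blocks. A ratio of at least 0.6 was held by 79.9%, 66.7% and 57.2% of these, and median GC content was 65%, 65.7% and 61%. The sequences below are a CpG-poor start region and one with more CpG sites, for 1 rise and 1 fall each. The richer fall, SOX2, had a ratio of 0.667, which is still below the median of all tested coding genes. The sequences are the bases just before the gene in RefSeq GRCh38.p14 on the gene's own strand, 5′ to 3′, with each CG in capitals.
CRISP3 (higher, chr6:49744438-49744638, minus strand, 201 bases, 0 CG): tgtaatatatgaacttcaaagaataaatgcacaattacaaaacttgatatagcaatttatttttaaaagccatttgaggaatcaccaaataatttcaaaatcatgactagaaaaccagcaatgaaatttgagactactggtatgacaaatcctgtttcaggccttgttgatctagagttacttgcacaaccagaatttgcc
ADCY2 (higher, chr5:7395888-7396137, plus strand, 250 bases, 40 CG): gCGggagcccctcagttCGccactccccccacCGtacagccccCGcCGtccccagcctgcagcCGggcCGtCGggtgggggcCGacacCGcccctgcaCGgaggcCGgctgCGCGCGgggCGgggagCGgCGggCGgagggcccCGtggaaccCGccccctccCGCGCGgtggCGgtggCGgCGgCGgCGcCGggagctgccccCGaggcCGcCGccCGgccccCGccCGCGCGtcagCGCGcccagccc
ABCC2 (lower, chr10:99782390-99782639, plus strand, 250 bases, 1 CG): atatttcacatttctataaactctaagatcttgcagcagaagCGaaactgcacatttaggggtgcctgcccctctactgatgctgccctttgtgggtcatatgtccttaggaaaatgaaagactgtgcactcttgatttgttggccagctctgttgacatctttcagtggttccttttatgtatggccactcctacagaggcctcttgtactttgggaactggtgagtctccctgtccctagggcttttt
SOX2 (lower, chr3:181711675-181711923, plus strand, 249 bases, 20 CG): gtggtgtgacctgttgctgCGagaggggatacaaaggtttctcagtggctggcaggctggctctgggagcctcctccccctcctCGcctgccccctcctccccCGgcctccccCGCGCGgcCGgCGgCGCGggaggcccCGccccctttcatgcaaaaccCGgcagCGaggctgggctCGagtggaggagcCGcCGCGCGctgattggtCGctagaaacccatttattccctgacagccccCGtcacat

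In the 300-base windows the CpG ratio was 0.118 for CRISP3, 0.92 for ADCY2, 0.066 for ABCC2 and 0.667 for SOX2. Motifs were searched as exact letters on both strands. The estrogen response palindrome, GGTCA and TGACC around any 3 bases, was in 3 windows of all coding genes (0.0268%), in 0 of the higher and in 0 of the lower ones. A single arm of it, AGGTCA, was in 10.1% of all, 10.5% of higher and 11.9% of lower windows, and the window of SOX2 holds one. The AP-1 letters TGANTCA were in 4.52%, 6.22% and 10.1%, and the TEAD letters GGAATG in 10.8%, 12.4% and 10.7%. The single arm can lie within a palindrome. These matches are descriptions of the windows and were not tested.

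Among abundant genes (mean log2 CPM of at least 7), MGP, a secreted inhibitor of calcification and BMP signals, was at 97.6, 89.9 and 98.6 CPM in control and 350.3, 343 and 354 CPM in knockout libraries (1.87 without and 2.03 with offsets). KRT81, a hair keratin made by some breast tumour cells, was at 102, 99.7 and 99 CPM in control and 236, 279 and 276 CPM in knockout libraries (1.40 without and 0.96 with offsets). CD24, a surface glycoprotein, was at 302, 264 and 279 CPM in control and 509.7, 526 and 534 CPM in knockout libraries (0.89 without and 0.97 with offsets). No overlap between groups was part of the rule for these genes, and KRT81 had its lowest knockout level in replicate 1. FADS2 (1.14 without and 0.97 with offsets), a fatty acid desaturase, SLC34A2 (1.18 without and 1.16 with offsets), a phosphate transporter, and MATN2 (0.89 without and 0.94 with offsets), a matrix protein, rose as well.

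In the other direction ANXA1 (ENSG00000135046, chromosome 9, 73151757 to 73170393), a phospholipid-binding protein with anti-inflammatory action, was at 416, 379 and 398 CPM in control and 91.8, 93.5 and 89.9 CPM in knockout libraries (-2.12 ± 0.05). KRT4, a keratin of mucosal epithelium, was at 338, 319 and 309.8 CPM in control and 106, 104 and 104 CPM in knockout libraries (-1.62 ± 0.05). CES1, a carboxylesterase that cleaves esters of drugs and lipids, was at 761, 738 and 725 CPM in control and 276, 265 and 276 CPM in knockout libraries (-1.44 ± 0.03). The other abundant falls were ALDH1A1, CYP4F11 (-1.32 without and -1.30 with offsets), a fatty acid hydroxylase, and ABCC2 (-1.35 without and -1.27 with offsets), an exporter of conjugates.

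Of long noncoding RNAs, DSCAM-AS1, known from luminal breast tumours with ERα, was at 0.455, 0.429 and 0.569 CPM in control and 10.3, 9.29 and 9.37 CPM in knockout libraries (4.28 ± 0.24). LINC00632, the host transcript of a brain circular RNA, was at 6.67, 5.07 and 6.57 CPM in control and 83.2, 70.3 and 81.3 CPM in knockout libraries (3.68 ± 0.10). No overlap between groups was a condition for naming these RNAs as well. DSCAM-AS1 is antisense to DSCAM, and reads of the opposite strand cannot be told apart if strand was not used in counting. KDM7A-DT (1.70), GCAWKR (1.55) and ENSG00000223930 (1.86) were the next rises. LINC02849 (-2.65), ENSG00000253154 (-3.37), ENSG00000247134 (-2.36), ENSG00000280441 (-1.52) and ENSG00000278996 (-2.10) were the falls, the last carried unevenly by the knockout libraries and not called by DESeq2 (adjusted p = 0.156).

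Some genes were nearly silent in 1 group. Of the genes tested, 86 had at most 3 reads in all control libraries together and 28 in all knockout libraries. The filter ran on all 15 libraries, and all but the 3 control libraries came from knockout cells. Genes silent in control thus had more groups through which to pass, so the counts by direction cannot be compared. Of these genes, 4 were that low in both groups, which leaves 82 and 24 with more reads in the other group. KIT (ENSG00000157404, chromosome 4, 54657918 to 54740715), the receptor of stem cell factor and a marker of luminal progenitor cells, had 0 reads in every control library and 31, 39 and 39 in the knockout libraries, at least 36.2-fold higher against a floor of 3 reads over the control group. SDC2, a cell surface proteoglycan, had 0, 1 and 1 reads in control and 76, 76 and 92 in knockout libraries. The orphan receptor gene GPR141 had 0, 0 and 2 against 54, 75 and 75. SLIT3, a ligand of ROBO receptors, had 1, 0 and 2 against 30, 26 and 35. These genes were picked for at most 3 control reads and the most knockout reads, so the gap between groups follows largely from the rule.

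In the other direction ZFPM2, a cofactor of GATA factors, had 14, 27 and 27 reads in control and 1, 1 and 0 in knockout libraries. The unnamed ENSG00000253288 had 109, 97 and 94 reads against 0 in each knockout library, and the histone pseudogene H2BC27P had 29, 12 and 24 against 0. ENSG00000280064 had 212, 105 and 1 against 0, so control replicate 3 lay at the knockout level, and it was not called with DESeq2 (adjusted p = 0.109). The readthrough transcripts ARL2-SNX15 (41, 0 and 50 against 0) and INMT-MINDY4 (16, 18 and 35 against 0) share exons with their parent genes, and how reads were divided between them is uncertain.

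Outside the blocks, 12 short runs of at least 3 neighbouring tested genes moved in 1 direction past 1.5-fold. They were found after the values were seen. On chromosome 6 (49499958 to 49744437) C6orf141 lay within the run from GLYATL3 to CRISP3 and was at 6.36, 6.79 and 6.76 CPM in control and 17.1, 17.7 and 17.6 CPM in knockout libraries (1.40). RHAG, an ammonium channel of red cells, had 3.05 and CRISP2, a sperm protein, 4.13. CRISP2 had 0, 2 and 0 reads in control and 16, 14 and 11 in knockout libraries, so the size of its rise is uncertain. On chromosome 9 (72900662 to 74888094) ALDH1A1 and ANXA1 stood beside TRPM6, a magnesium channel, at 5.38, 4.64 and 5.88 CPM in control and 1.92, 1.45 and 1.59 CPM in knockout libraries (-1.68). On chromosome 21 (39556442 to 40385358) B3GALT5 (2.55), a glycosyltransferase, IGSF5 (1.21) and PCP4 (2.19) rose beside DSCAM-AS1.

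On chromosome 19 (15640897 to 15836326) the fatty acid hydroxylase CYP4F3 was at 112, 117 and 115 CPM in control and 30.4, 30.2 and 31.4 CPM in knockout libraries (-1.90), next to CYP4F12 (-1.79) and the noncoding RNA UCA1 (-1.03). On chromosome 3 (28574791 to 30694142) TGFBR2, the signalling receptor of TGF-beta, was at 85.8, 81.3 and 82.3 CPM in control and 43.1, 47 and 44.7 CPM in knockout libraries (-0.89) beside RBMS3 and RBMS3-AS2. On chromosome 1 (236142505 to 236552981) GPR137B (1.09), ERO1B (1.07), EDARADD (1.58) and LGALS8 (0.74) rose, a run that a block rule with a threshold of 0.2 places inside a block (235109336 to 246566324). Genes of the CYP4F family are similar in sequence, so the division of reads among them is uncertain.

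Gene lists were read against the share called among all genes, 23.4% higher and 22.6% lower without offsets, and against the median over all genes, -0.00 without and 0.02 with offsets. Coding genes were called more often, 4068 of 14012 higher and 3751 lower without offsets. Lower calls were also commoner at high levels, at 1356 of 3026 genes with a mean log2 CPM of 6 to 8 and 359 of 597 above 8. Lists of abundant coding genes, such as those of ribosomal proteins or mitosis, were not compared with genes of like level. In bulk RNA, fewer cells of a kind and less RNA per cell cannot be told apart. Of 45 lists, the median kept its sign in all settings in 32. For 13 it changed sign in at least 1 setting, which is said beside each list.

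**Figure D3:**
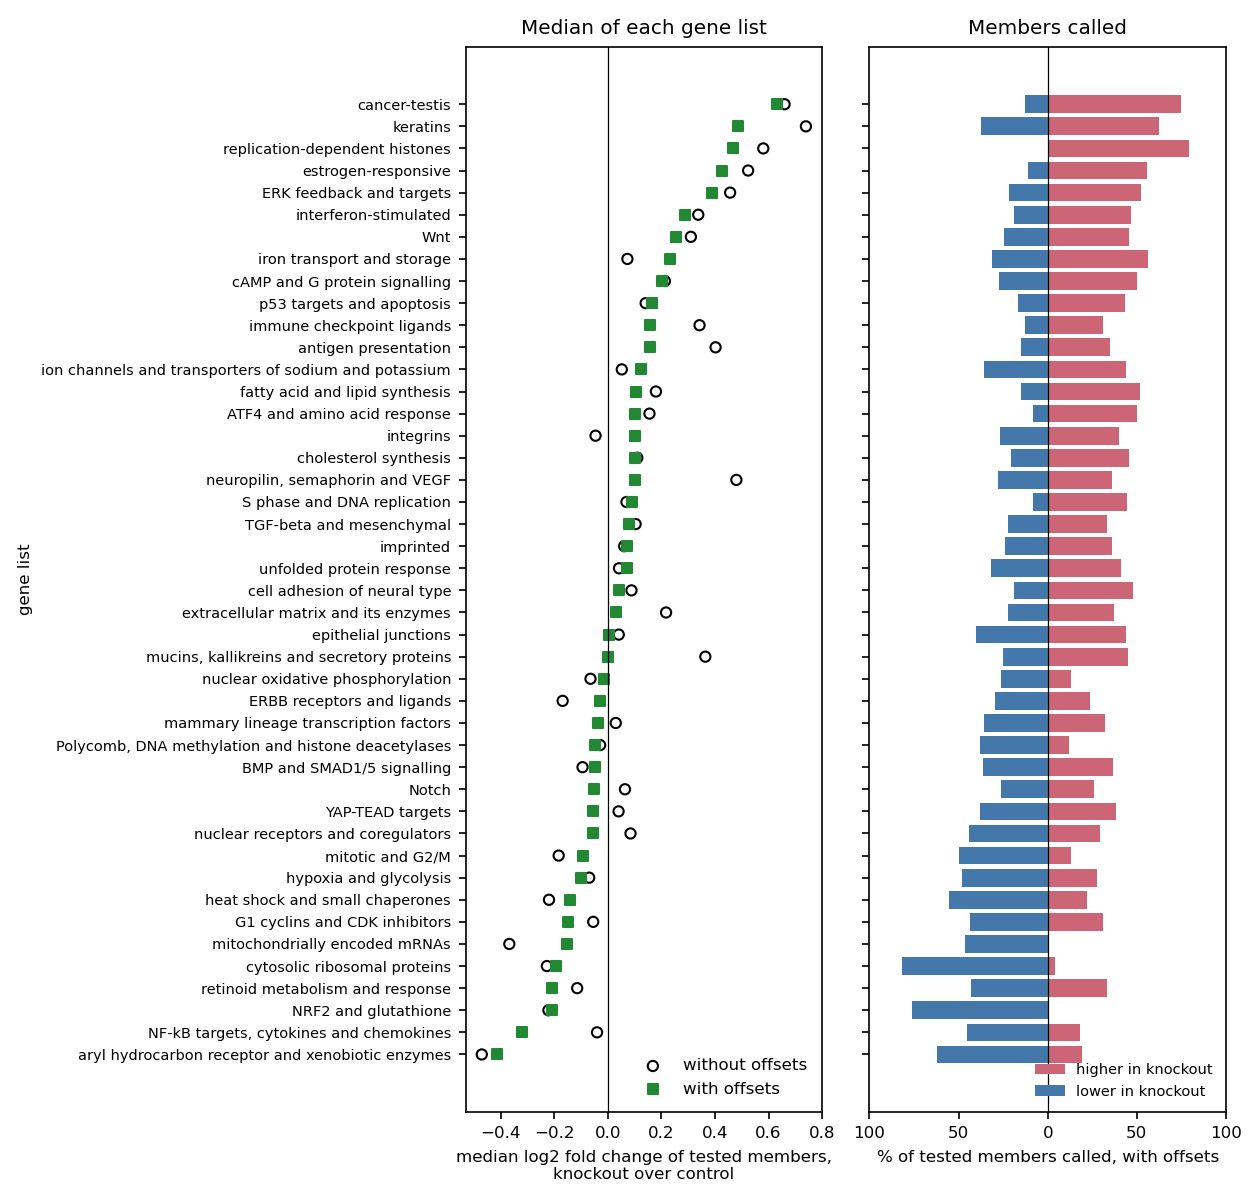
For each gene list shown, the median log2 fold change of knockout over control without and with offsets (left) and the percent of tested members called higher or lower with offsets (right). Replication-dependent histones (median 0.47 with offsets) and keratins (0.49) lie towards the higher end and aryl hydrocarbon receptor and xenobiotic enzymes (-0.41) at the lower.

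Retinoic acid is made from retinol in steps of oxidation, carried to nuclear receptors and degraded by CYP26 enzymes. Of 21 tested genes of this pathway, 6 were higher and 7 lower (7 and 9 with offsets, median -0.21). Their summed level was 1799 to 1948 CPM in control and 740.6 to 752 CPM in knockout libraries. ALDH1A1 made up 1418, 1361 and 1289.6 CPM of it in control and 158, 154 and 157 CPM in knockout libraries. Among enzymes that make retinoic acid, ALDH1A3 went against ALDH1A1, at 5, 4.93 and 5.5 CPM in control and 19, 19.9 and 20.3 CPM in knockout libraries (1.94 ± 0.10). RDH11, a retinal reductase, had 0.47. Of carriers, FABP5, which brings retinoic acid to PPAR delta, was at 15.6, 15.2 and 16.4 CPM in control and 3.35, 4.49 and 2.94 CPM in knockout libraries (-2.15 ± 0.14), while CRABP2 (0.70), which brings it to its receptors, and RBP4 (3.10), the plasma carrier of retinol, rose.

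The receptor gene RARB, itself a target of retinoic acid, was at 20.8, 25.3 and 23.8 CPM in control and 8.69, 8.98 and 7.84 CPM in knockout libraries (-1.46 ± 0.10, adjusted p = 3.09e-10). No library of either group reached the other group. CYP26A1 (-1.80) and CYP26B1 (-0.70), which degrade retinoic acid, and TGM2 (-0.50), a transglutaminase, were also lower, while CRABP2, likewise known as a target, was among the carriers that rose. CYP26A1 was low throughout, on average 1.44 ± 0.423 CPM among control and 0.412 ± 0.173 CPM among knockout libraries (SD, n = 3 each).

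Enzymes and exporters of foreign compounds under the aryl hydrocarbon receptor and related factors were mostly lower, 14 of 21 against 3 higher (13 and 4 with offsets, median -0.41). AKR1B10, an aldo-keto reductase, was at 467, 443 and 467 CPM in control and 184, 179 and 182 CPM in knockout libraries (-1.34 ± 0.04). ABCG2, an exporter known for drug resistance in breast cancer, was on average 140.4 ± 2.66 CPM among control and 68.9 ± 1.45 CPM among knockout libraries (-1.03). AKR1C3 (-0.68) reduces steroids and prostaglandins. CYP1B1, which hydroxylates estrogens, went the other way, from 117 ± 10.3 CPM to 210.1 ± 5.07 CPM (0.85), as did the exporter ABCC3 (0.52) and the quinone reductase NQO1 (0.11 without and 0.19 with offsets).

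Genes of NRF2 and glutathione fell in 13 of 21 cases and rose in 4, and with offsets 16 fell and 0 rose (median -0.21). The gene of NRF2 itself, NFE2L2 (ENSG00000116044, chromosome 2, 177227595 to 177392697), lies shortly before the first chromosome 2 block and was at 141, 138 and 139 CPM in control and 86.1, 84.1 and 87.4 CPM in knockout libraries (-0.70 without and -0.58 with offsets). SLC7A11, the cystine importer, was at 1023, 947 and 1006 CPM in control and 536, 564 and 535 CPM in knockout libraries (-0.86 ± 0.04). FTL, the ferritin light chain, was at 3461, 3497 and 3509.5 CPM in control and 2069, 1932 and 2036 CPM in knockout libraries (-0.79 ± 0.03). Each of these 3 genes was lower in all knockout than in all control libraries. GCLM (-0.59) and GCLC (-0.49), the subunits of the first enzyme of glutathione synthesis, SRXN1 (-0.45), which repairs peroxiredoxins, and GPX2 (-0.48), a glutathione peroxidase, fell too. Rises without offsets included GPX4 (0.63 without and 0.14 with offsets), which reduces lipid peroxides, TKT (0.23 without and 0.06 with offsets), a transketolase, and KEAP1 (0.21 without and -0.14 with offsets), the inhibitor of NRF2. With offsets these 3 were not called (adjusted p = 0.136, 0.106 and 0.0936).

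Among 34 nuclear receptors and coregulators, 14 were higher and 10 lower (10 and 15 with offsets), and their median changed sign with offsets. NR3C1, the glucocorticoid receptor, was at 146, 133 and 134 CPM in control and 73, 68.9 and 68.8 CPM in knockout libraries (-0.97 ± 0.05). NCOR1, a corepressor, was at 319, 316 and 323 CPM in control and 193, 192 and 199 CPM in knockout libraries (-0.71 ± 0.03). Both were lower in all knockout than in all control libraries, and PPARG (-0.76), the receptor of fat cells, and NRIP1 (-0.77), a corepressor, were lower. NR3C2 (0.88), the mineralocorticoid receptor, and ESR1 (0.80), on average 10 ± 0.876 CPM among control and 17.4 ± 0.243 CPM among knockout libraries, were higher.

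Estrogen-responsive genes were higher in 9 of 18 cases and lower in 3 (10 and 2 with offsets), with a median of 0.52 and 0.43. RET, a receptor kinase induced through ERα, was at 0.227, 0.286 and 0.126 CPM in control and 3.13, 3.65 and 2.57 CPM in knockout libraries (3.84 ± 0.30, adjusted p = 3.67e-09). The carbonic anhydrase CA12 was at 27.3, 25.4 and 31.4 CPM in control and 94.4, 91.8 and 89.9 CPM in knockout libraries (1.71 ± 0.06). GREB1 (1.57), an ERα coregulator, TFF3 (2.61), a secreted trefoil peptide, and CTSD (1.15 without and 0.66 with offsets), a lysosomal protease, rose. TFF1 was low, at 0.303, 0.143 and 0.253 CPM in control and 0.285, 0.0761 and 0.429 CPM in knockout libraries, and IGFBP4 was at 9.7, 8.43 and 10.4 CPM in control and 9.9, 11.7 and 10.5 CPM in knockout libraries, with overlapping groups and no call for either (adjusted p = 0.774 and 0.237). SIAH2, a ubiquitin ligase, fell (-0.31 without and -0.53 with offsets).

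Feedback inhibitors and targets of ERK were higher in 12 of 23 cases and lower in 5 in both fits (median 0.46 and 0.39 with offsets). DUSP4, a phosphatase of ERK, was at 58, 50.5 and 53.5 CPM in control and 189, 206 and 204 CPM in knockout libraries (1.89 ± 0.05), and DUSP6 (1.85) and the inhibitor SPRY4 (1.04) rose with it. ETV5 (0.96), a transcription factor below ERK, rose. FOSL1 (-1.65 without and -1.92 with offsets), an AP-1 subunit, fell, as did the growth-promoting factor MYC, on average 157 ± 6.23 CPM among control and 103 ± 3.28 CPM among knockout libraries (-0.61 ± 0.04). Members of the same list thus lay on both sides.

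ERBB receptors and ligands moved both ways, 5 of 17 higher and 6 lower (4 and 5 with offsets, median -0.03). ERBB2 was at 3411, 3691 and 3461 CPM in control and 5187, 5332 and 5322 CPM in knockout libraries (0.58 without and 0.32 with offsets), and its amplified neighbour GRB7, an adaptor, had 0.69 without and 0.39 with offsets. ERBB4, a receptor of neuregulins, was on average 13.4 ± 0.19 CPM among control and 6.11 ± 0.601 CPM among knockout libraries (-1.14 ± 0.11). ERBB3 had 0.23 and EGFR -0.30. The ligand genes NRG4 (-0.88) and TGFA (-0.85) were lower like NRG1.

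BMP genes were split, with 7 of 22 higher and 9 lower (8 and 8 with offsets, median -0.05). Among ligands, BMP7 was at 2.27, 3.5 and 3.54 CPM in control and 10.2, 11.4 and 11.9 CPM in knockout libraries (1.84 without and 1.58 with offsets). BMP3 had 4.60, from 0, 0 and 2 reads in control and 15, 23 and 19 in knockout libraries, so the size of its rise is uncertain. BMP6 had -1.06, and BMP5 was given above. Of the immediate targets, ID1 (0.48) and ID3 (0.45), inhibitors of differentiation factors, were higher and SMAD7 (-0.53), an inhibitor of the pathway, was lower.

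Wnt genes were higher in 18 of 33 cases and lower in 5 (15 and 8 with offsets, median 0.31 and 0.26). The extracellular inhibitor WIF1 was at 5.53, 3.64 and 3.73 CPM in control and 19.6, 20.9 and 19.4 CPM in knockout libraries (2.22 ± 0.11), and another, SFRP1, had 1.92. The receptors ROR1 (1.47) and FZD1 (1.54) rose and FZD5 (-0.85) fell. WNT5A, a ligand that signals mostly without beta-catenin, went from 702 ± 22.5 CPM to 542 ± 12.2 CPM (-0.37). In the TGF-beta and mesenchymal list 5 of 18 were higher and 4 lower, with LTBP1 (1.08), which binds the latent ligand, INHBA (1.27), an activin subunit, and TGFBR3 (-1.07), a coreceptor. That list's median changed sign in some settings.

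The neuropilin, semaphorin and VEGF list had 14 of 25 higher and 5 lower, but 9 and 7 with offsets (median 0.48 and 0.10). NRP1, a coreceptor of VEGF and semaphorins, was at 116, 114 and 119 CPM in control and 170.1, 168 and 171 CPM in knockout libraries (0.55 without and 0.61 with offsets). FLT4, a receptor of VEGFC, had 1.93 without and 1.48 with offsets, and VEGFC itself had -0.90 without and -0.83 with offsets. For the matrix list the shift was alike, from 13 of 27 higher and 4 lower to 10 and 6, with a median of 0.22 and 0.03 that changed sign in some settings. COL6A2 (2.90 without and 2.25 with offsets), a collagen VI chain, rose less with offsets, and TIMP3 (0.95 without and 1.01 with offsets), a protease inhibitor, did not. LAMB3, a chain of an epithelial laminin, fell (-1.01 without and -1.25 with offsets).

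Keratins were higher in 5 of 8 cases and lower in 2 (5 and 3 with offsets, median 0.74 and 0.49). KRT15, a keratin of basal and progenitor cells, was at 8.64, 8.64 and 8.28 CPM in control and 33.3, 32.5 and 32.1 CPM in knockout libraries (1.94 ± 0.08). KRT19 (1.04 without and 0.76 with offsets) and KRT7 (0.44 without and 0.22 with offsets), keratins of simple epithelium, were higher, and KRT18 (-0.49 without and -0.63 with offsets) and its partner KRT8 (-0.18 without and -0.35 with offsets) lower. Epithelial junction genes were called in 21 of 25 cases, 11 higher and 10 lower in both fits, with a median that changed sign in some settings. CLDN1 (0.45), a claudin, rose and DSP (-0.43), the desmosomal plaque protein, fell.

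Secretory proteins and mucins were higher in 9 of 20 cases and lower in 4, but their median went from 0.36 to 0.00 with offsets and changed sign in some settings. LCN2, a secreted siderophore binder, was at 46.6, 53.7 and 47.3 CPM in control and 169.9, 159.9 and 172 CPM in knockout libraries (1.77 ± 0.05). S100A9 (1.90), a subunit of calprotectin, rose. S100P (-1.05) and MUC1 (-0.60 without and -0.80 with offsets), the luminal mucin, fell. Mammary lineage factors were split, 8 of 25 higher and 7 lower (8 and 9 with offsets), with a median that changed sign. GATA3 (0.80 without and 0.69 with offsets), a luminal factor, and XBP1 (0.42 without and 0.48 with offsets), a secretory factor, rose, and FOXC1 (-1.90 without and -1.98 with offsets), a factor of basal-like tumours, fell.

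Interferon-stimulated genes were higher in 14 of 32 cases and lower in 5 (15 and 6 with offsets, median 0.34 and 0.29). ISG15, a ubiquitin-like modifier, was at 1.97, 2.71 and 1.9 CPM in control and 7.55, 7.31 and 7.53 CPM in knockout libraries (1.77 without and 1.29 with offsets). OAS2 (2.43), which senses double-stranded RNA, and MX1 (1.22), an antiviral GTPase, rose. Antigen presentation genes were higher in 11 of 20 cases and lower in 3, and 7 and 3 with offsets. HLA-DRA (2.01 without and 2.13 with offsets), a class II chain, held its rise with offsets, and TAPBP, which loads class I molecules, did not (0.43 without and 0.10 with offsets, adjusted p with offsets 0.0797).

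Immune checkpoint ligands beyond VTCN1 included CD86, a ligand of CD28, with a fall of -2.61 as log2 fold change. The list had 6 of 16 higher and 2 lower. NF-kB targets had 6 of 22 higher and 7 lower, and 4 and 10 with offsets (median -0.04 and -0.32, a median that changed sign with the 6 libraries fitted alone). BIRC3, an inhibitor of apoptosis, was at 36.7, 30.7 and 35.8 CPM in control and 13.2, 12.9 and 13.6 CPM in knockout libraries (-1.38 ± 0.09). TNFSF10 (1.68), the death ligand TRAIL, and TNFAIP2 (1.21 without and 0.89 with offsets) rose.

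Ion channel and transporter genes were called in both directions, 8 of 25 each (11 higher and 9 lower with offsets, median 0.12). The subunits of the epithelial sodium channel fell together. SCNN1G was at 3.86, 5.79 and 4.93 CPM in control and 0.356, 0.304 and 0.245 CPM in knockout libraries (-3.99 ± 0.31), SCNN1B at 2.27, 3.5 and 2.65 CPM in control and 0.855, 1.45 and 1.65 CPM in knockout libraries (-1.08 ± 0.26), and SCNN1A at 222, 243 and 232 CPM in control and 160.2, 164 and 167 CPM in knockout libraries (-0.51 ± 0.04). Each subunit was lower in all knockout libraries than in any control library. KCNQ1 (2.79 without and 2.41 with offsets), a potassium channel, and SLC4A4 (2.17 without and 2.28 with offsets), a bicarbonate cotransporter, rose. Among iron genes 7 of 16 were higher and 6 lower (9 and 5 with offsets), and the median changed sign without a filter on low counts. TF, the plasma iron carrier, fell from 34.8, 35.6 and 33.5 CPM to 20.8, 15.1 and 17.2 CPM (-0.97), and CYBRD1, a ferric reductase, rose (3.15).

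Genes of cAMP signalling were higher in 11 of 22 cases and lower in 6 in both fits (median 0.21 and 0.20). Beside ADCY2, the cyclase ADCY1 rose (1.11), and the phosphodiesterase PDE3B (-1.02) and the anchor AKAP12 (-1.34) fell. The exchange factor PREX1, which activates RAC, was at 0.152, 0.357 and 0.126 CPM in control and 5.49, 5.1 and 5.08 CPM in knockout libraries (4.59). DOCK10, an exchange factor in a chromosome 2 block, had -1.32.

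Mitotic genes were lower in 23 of 30 cases and higher in 2 (15 and 4 with offsets, median -0.18 and -0.09). CDK1, the kinase that starts mitosis, was at 187, 166 and 181 CPM in control and 93.8, 101 and 92.5 CPM in knockout libraries (-0.89 without and -0.68 with offsets), and ASPM, a spindle pole protein, had -0.67 without and -0.50 with offsets. BIRC5 (0.22 without and 0.24 with offsets), a mitotic inhibitor of apoptosis, was higher. S-phase genes had 12 of 36 higher and 5 lower (16 and 3 with offsets, median 0.07 and 0.09), and 8 were called higher in both fits. Among all coding genes 4068 of 14012 were higher without offsets, a share near that of the S-phase genes, and 3696 of 14005 with them. G1 genes had 2 of 16 higher and 8 lower, with CDKN2C (1.04), a CDK inhibitor, higher and CCND1 (-0.25), cyclin D1, lower. Their median changed sign without a filter on low counts.

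Replication-dependent histones were higher in 25 of 36 cases and lower in 2, and in 27 and 0 of 34 with offsets (median 0.58 and 0.47). H1-3 had 0.62 without and 0.69 with offsets, H3C4 0.92 without and 0.68 with offsets and H4C1 0.79 without and 0.72 with offsets. Their mRNAs lack a poly(A) tail and are near-identical in sequence, so reads may be divided between copies. Ribosomal protein genes were lower in 37 of 49 cases (40 with offsets, median -0.23 and -0.19), with small changes such as RPL37 (-0.53 without and -0.43 with offsets) and RPS6 (-0.31 without and -0.21 with offsets). Mitochondrially encoded mRNAs were lower in 11 of 13 cases and in 6 with offsets, with knockout replicate 2 the lowest: MT-CO2, a subunit of cytochrome c oxidase, was at 2629.8, 2542 and 2514 CPM in control and 1641, 1171 and 1757 CPM in knockout libraries (-0.75 without and -0.56 with offsets).

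Heat shock genes were lower in 10 of 18 cases and higher in 5 (10 and 4 with offsets, median -0.22 and -0.14). HSPD1 (-0.90) and HSPE1 (-1.06), the mitochondrial chaperonin and its partner, lie side by side in the second chromosome 2 block, whose median was -0.54. Outside the blocks the small heat shock protein CRYAB fell (-2.0 without and -1.98 with offsets) and HSPB8 rose (4.38 without and 4.43 with offsets). ATF4 and amino acid response genes were higher in 12 of 24 cases and lower in 3 (12 and 2 with offsets, median 0.16 and 0.10). GDF15, a stress cytokine, was at 28.4, 26.1 and 27.4 CPM in control and 72.2, 97.5 and 102 CPM in knockout libraries. Its log2 fold change was 1.73 without and 1.46 with offsets, and its lowest knockout level was in replicate 1.

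In metabolism, LDHA, lactate dehydrogenase, was at 843, 789.6 and 819.9 CPM in control and 546, 523 and 538 CPM in knockout libraries (-0.61 ± 0.03), and of the hypoxia and glycolysis list 8 of 29 were higher and 10 lower (8 and 14 with offsets, median -0.10). VEGFA and the glucose transporter SLC2A1, at -0.07 and -0.10, were not called (adjusted p = 0.159 and 0.07). Fatty acid and lipid genes were higher in 13 of 27 cases and lower in 6 (14 and 4 with offsets). Cholesterol synthesis had 9 of 24 higher and 5 lower, led by STARD4 (2.07 without and 2.25 with offsets), a sterol carrier, and TM7SF2 (1.54 without and 1.08 with offsets), a sterol reductase. Nuclear genes of oxidative phosphorylation had 2 of 38 higher and 15 lower (5 and 10 with offsets, median -0.06 and -0.01).

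Genes often silent outside the germ line were mostly not tested, 8 of 33 passing the filter, with 6 higher and 2 lower. MAGEA1 was at 28.7, 24.4 and 25.1 CPM in control and 59.8, 59.3 and 59.9 CPM in knockout libraries (1.2 ± 0.06). Of 25 imprinted genes, 6 were higher and 4 lower, and 9 and 6 with offsets. Targets of YAP and TEAD were split, 9 of 21 higher and 8 lower, with CCN2 (1.43) and NT5E (1.03) higher and TEAD1 (-0.52) itself lower, and the median changed sign in some settings. Notch genes had 9 of 23 higher and 5 lower, and 6 and 6 with offsets, where the median changed sign (0.06 without and -0.05 with offsets). NOTCH3 turned from 0.45 to -0.05. Integrins had 6 of 15 higher and 6 lower, and 6 and 4 with offsets, and their median changed sign (-0.05 without and 0.10 with offsets), with ITGB5 (0.50) higher and ITGAV (-1.06), in a chromosome 2 block, lower. For p53 targets 11 of 30 were higher and 6 lower (13 and 5 with offsets), for unfolded protein response genes 8 of 22 and 7 (9 and 7), and for Polycomb, DNA methylation and histone deacetylase genes 9 of 34 and 14 (4 and 13). Adhesion genes of neural type had 10 of 21 higher and 6 lower, with CADM1 (1.54 without and 1.61 with offsets), an adhesion molecule of epithelia and synapses, higher and PCDH7 (-1.76 without and -1.71 with offsets), a protocadherin, lower, and their median changed sign in some settings.

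Chromosome-scale blocks were found from the fold changes themselves, as stretches where the median over 41 neighbouring genes was at least 0.3 from 0, so their direction is a description. There were 5, with 701 tested genes: chromosome 2, 178112424 to 191847255 (63 genes, median -0.62) and 197389784 to 241804208 (286 genes, -0.54), chromosome 13, 32782874 to 114337626 (240 genes, -0.85), and chromosome 14, 92794231 to 96363870 (33 genes, 0.42) and 99971449 to 105492267 (79 genes, 0.61). With offsets the medians were -0.46, -0.50, -0.73, 0.40 and 0.43. Leaving them out, 8452 of 18815 genes were called (44.9%), 4458 higher and 3994 lower. The blocks held 701 of 19516 tested genes, so few of the calls could lie in them. Inside them 74% of genes were called, 103 higher and 416 lower, and with offsets 71.6% against 40.7% outside. The blocks were chosen from these fold changes, so a high share there follows in part from the rule. The number of blocks depended on the rule. A threshold of 0.2 in place of 0.3 gave 10, which added stretches of chromosomes 1, 3, 5, 7, 8 and 19, and a window of 81 genes gave 3, 1 each on chromosomes 2, 13 and 14. Outside them 8285 and 8444 genes were called.

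**Figure D4:**
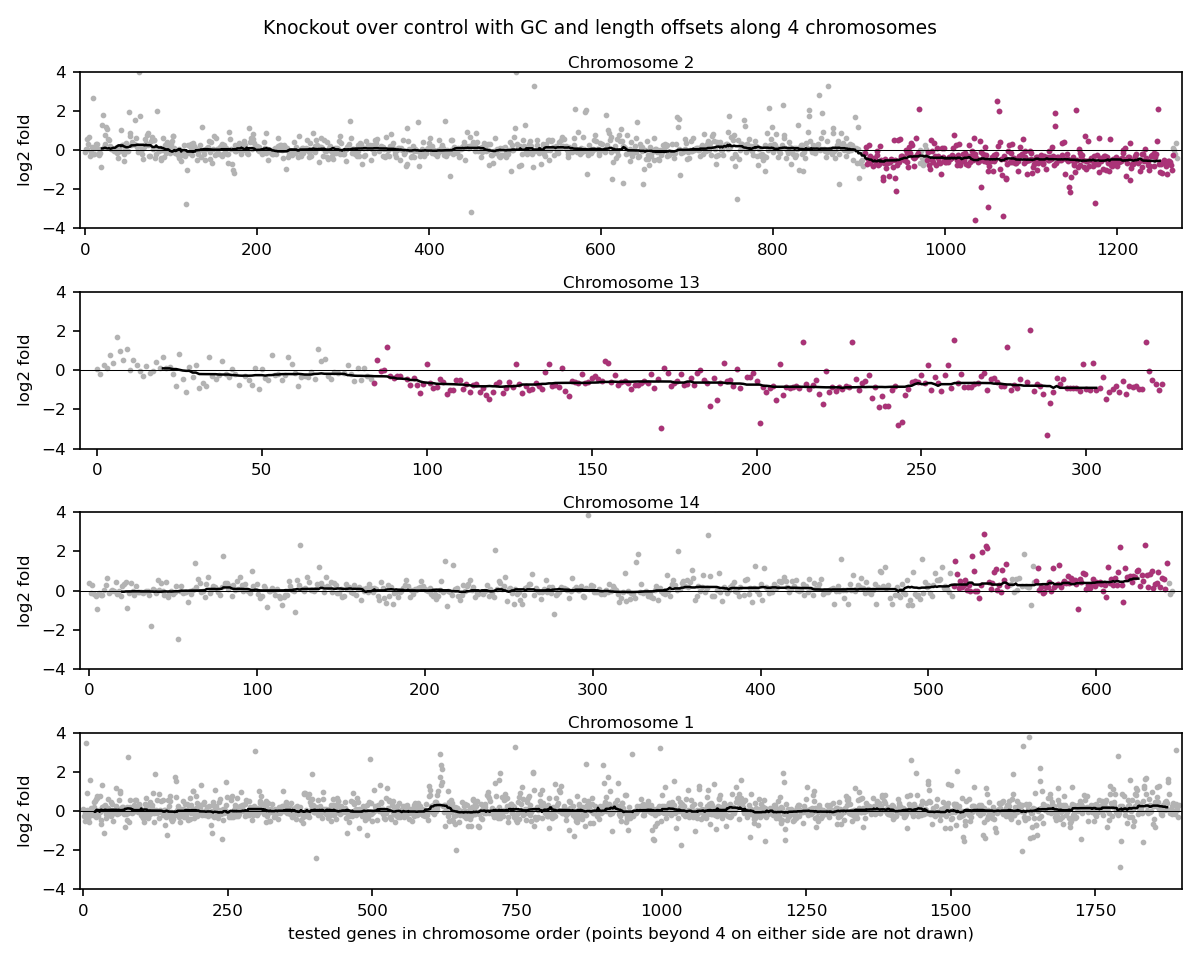
Log2 fold change of knockout over control, with offsets, along chromosomes 2, 13 and 14, and chromosome 1 for comparison, in gene order. Points are genes, the line is the median over 41 neighbouring genes, and coloured stretches are the 5 blocks, whose medians in this fit run from -0.73 to 0.43.

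Within the blocks some genes lay far from their neighbours. In the chromosome 2 blocks ACADL, a mitochondrial fatty acid dehydrogenase, went against its block, at 0.985, 1.21 and 1.2 CPM in control and 5.63, 6.32 and 5.82 CPM in knockout libraries (2.37), as did CPS1 (1.89), a urea cycle enzyme, and EPHA4 (1.82), an ephrin receptor. SLC40A1, the iron exporter ferroportin, was at 42, 42.6 and 37.8 CPM in control and 57.1, 57.5 and 53.1 CPM in knockout libraries (0.45). TFPI, an inhibitor of coagulation, was at 30.6, 29.8 and 29.1 CPM in control and 6.7, 6.24 and 6 CPM in knockout libraries (-2.24), well below its block's median. NRP2 (-3.57), COL4A3 (-2.18), a collagen IV chain, and ADAM23 (-1.99), an adhesion protein, also lay below.

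On chromosome 13 KCTD12 (1.33), an auxiliary subunit of GABA-B receptors, and SLITRK6 (1.26), a neuronal membrane protein, rose. KLF5, an epithelial transcription factor, was at 89.1, 73.5 and 82.5 CPM in control and 24.6, 26.4 and 27.6 CPM in knockout libraries (-1.64). GPC6, a glypican, was at 33.6, 32.4 and 32.9 CPM in control and 8.41, 9.06 and 8.14 CPM in knockout libraries (-1.95). With DACH1 (-2.83), a corepressor, they fell more than the block did. On chromosome 14 SERPINA1 (2.34), which encodes alpha-1 antitrypsin, and PPP4R4 (1.86) rose more than their block. CEP170B, a microtubule protein, was at 43, 46.9 and 45.1 CPM in control and 117, 167 and 181 CPM in knockout libraries (1.78 without and 1.04 with offsets), lowest in knockout replicate 1, and its distance from the block shrank with offsets.

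Transcript shares within genes were tested in 8691 genes with diffSpliceDGE of edgeR, and 250 were called (2.88%). With limma 718 were called and 112 by both. Calls of 86 genes held with each library left out in turn. In 80 genes the gene's own level was not called. In RHBDF1, an inactive rhomboid protease, the coding transcript RHBDF1-201 took 24.0, 27.0 and 9.80% of the gene's estimated reads in control and 76.9, 73.8 and 65.6% in knockout libraries. RHBDF1-204, marked for nonsense-mediated decay, took 48.9, 32.5 and 61.9% against 0, 0.544 and 0%. The groups did not overlap at either transcript (adjusted p = 4.35e-07, edgeR, n = 3 each; 0.00145 with limma). In PLXNB2, a semaphorin receptor, PLXNB2-201 was listed at 0% in each control library and at 60.3, 47.5 and 60.3% in knockout libraries (adjusted p = 3.56e-10), a call that limma did not make (0.179). Shares are estimates that divide reads between similar transcripts, and in simulated data with unequal spread between transcripts the test made more false calls than its threshold allows.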

How the data were processed

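Ribosome-depleted total RNA was sequenced from 15 libraries (Illumina Stranded Total RNA Prep with Ribo-Zero Plus, per the labels), 3 in each of 5 groups. The authors deposited expected counts per gene and per transcript from RSEM, not normalised. Per the submitters' processing notes FastQC, Trim Galore and GSNAP came before RSEM, on GRCh38. Versions, the annotation release and the use of strand in counting are not given in the sources used here.

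Expected counts were rounded. In edgeR 4.0.16 (R 4.3.3) genes were filtered with filterByExpr and scaled with TMM, and 1 group-means model of all 15 libraries was fitted. Knockout was compared with control by the two-sided quasi-likelihood F test with Benjamini-Hochberg adjustment over all genes tested (threshold 0.05), and by glmTreat for changes past 1.5-fold. The biological coefficient of variation was 4.99%. The offsets were natural splines with 5 degrees of freedom each on GC content and log10 exonic length (GENCODE 29, which held 58396 of 60664 gene identifiers). Blocks were stretches of at least 30 genes. Transcript shares used the 6 libraries. Scripts were checked on simulated data. Replicate pairs differed by 2.48 to 3.61 times the counting error (chi-square per degree of freedom), so none was a repeat.

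Named genes were ESR2, the 15 largest rises and 15 largest falls with offsets among protein-coding genes outside the blocks that both fits called the same way, had no overlap between groups and reached 1 as mean log2 CPM, and 6 of each that reached 7. To these were added 5 long noncoding RNAs each way, up to 3 members with the smallest p per list, 3 genes farthest above and below each block's median, 6 genes each way with at most 3 reads in 1 group, the 5 most abundant genes whose direction turned, and the 8 largest changes of transcript share. A few genes that the rule names, and 1 list, are not reported here. The members and lists were chosen with earlier results of these data known.

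Alternatives were DESeq2 1.42.0, limma-voom (limma 3.58.1), RLE and upper-quartile factors, the fit of only the 6 libraries, all genes with any read, genes reaching a CPM of 1 in 3 or more libraries, a replicate block, and fits without each of the 6 libraries. Offsets with the 6 libraries alone, with each library left out or centred on abundant genes were chosen after seeing the data.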

Additional observations from a re-analysis of the deposited data

How the results depend on the processing

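The number of genes called, in all and outside the blocks, stayed within 1.5 times its value under every alternative. Over all genes 48.4 to 53.1% of calls were higher, and outside the blocks 52.7% without and 54.8% with offsets. Of 208 named genes called, 197 were called under every alternative that gave a value. Most were named for a large change or a small p, so a high share was likely from the start. That share was not taken over all called genes. ARL2-SNX15, ATP5MJ, BTBD7, ENSG00000278996, ENSG00000280064, MYH9, STAT4, TAPBP and WARS1 were among those that lost their call in at least 1. Calls past 1.5-fold moved more: DESeq2 made 884 (556 higher, 328 lower), limma-voom called 710 higher, and offsets gave 1052 (653 higher) with the 6 libraries alone and 703 higher when centred on abundant genes. Leaving out each library in turn, with and without offsets, gave 1030 to 1684 calls past 1.5-fold (640 to 1171 higher), the highest without knockout replicate 1. Transcript usage gave 161 genes when transcripts had to hold 10% of their gene, 718 with limma diffSplice, and 190 to 463 with each library left out, the highest without knockout replicate 1. The causes of these moves were not tested.

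No strong pairing by replicate number was seen, and pairing was not tested. Residuals of same-numbered control and knockout libraries had correlations across genes of 0.0387, 0.0513 and -0.00519. Those of differently numbered libraries ran from -0.0745 to 0.0351. With the replicate block 8807 genes were called and 1576 past 1.5-fold, and transcript usage gave 163 genes against 250 without it.

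Among the genes named by rule, the log2 fold change of 5 reversed with offsets. With all 15 libraries, with the 6 alone and with centring on abundant genes it was -0.05162, -0.04926 and -0.07266 for NOTCH3, and -0.1493, -0.1569 and -0.1706 for RPPH1. It was -0.1069, -0.1007 and -0.128 for MYH9, -0.09073, -0.08829 and -0.1117 for TRIM28, and -0.11, -0.1042 and -0.131 for PRRC2A. Over the fits that left out a library, with and without offsets, it ran from -0.08131 to 0.5323 (NOTCH3), -0.1978 to 0.2828 (RPPH1), -0.121 to 0.1163 (MYH9), -0.1067 to 0.2756 (TRIM28) and -0.1193 to 0.1997 (PRRC2A). With 3 libraries a group, GC balance cannot be told apart from genotype, and low counts limit genes such as ESR2 and TFF1.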
